A study of Mus musculus with 204 samples.

Results

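The neurons described here carried transcripts of Slc17a6, the gene of vesicular glutamate transporter VGLUT2, and were compared by whether they also carried Htr3a, the obligatory subunit of the 5-HT3 serotonin receptor. Of 204 picked cells, 149 were called neurons because at least 3 of Elavl3, Elavl4, Snap25, Stmn2 and Syt1 reached a log2(RPKM + 1) of 2, where RPKM gives reads scaled to gene length in kilobases and to 1000000 reads of the cell. The cells were thus chosen by their own measured levels of these 5 genes, Slc17a6 and Htr3a. In 86 of these neurons Slc17a6 also reached 2. Among them 34 had Htr3a at 3 or more and are called Htr3a-high, with 17, 7 and 10 cells on plates 1, 2 and 3. Another 44 had Htr3a below 1 and are called Htr3a-low, with 21, 10 and 13 cells on the same plates. The remaining 8 lay between these limits. The cells were picked from distal colon, of the VGLUT2-tdTomato reporter line, whose name ties the fluorescence to VGLUT2; the labels do not say how the reporter is driven. The muscle layers with the myenteric plexus had been dissociated, cultured overnight, and tdTomato-positive cells pipetted by hand. The labels give no genotype beyond that reporter, no strain, age or treatment, and they name no animal or culture, so cells of 1 plate are not replicates and no p-value is given.

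Serotonin released by enterochromaffin cells and by some enteric neurons acts on myenteric neurons through several receptors. The 5-HT3 receptor is the only one that is itself an ion channel: 5 subunits form a cation pore that depolarises the cell within milliseconds. HTR3A subunits can form the channel alone, whereas HTR3B assembles only together with HTR3A and changes the conductance and kinetics of the channel. In the gut wall 5-HT3 receptors contribute to fast excitatory transmission between neurons and to the activation of sensory neurons, and their blockers are used against nausea and diarrhoea.

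For 4 of the transcripts that the comparison turned on, the regulatory sequence is shown as the 250 bases before their start in RefSeq (build GRCm38.p6), read 5′ to 3′ on the strand of the gene; none of these windows reaches into the gene as GENCODE M21 annotates it. They stand for the second receptor subunit (Htr3b, chr9:48964991-48965240, minus strand) and a peptide precursor (Adcyap1, chr17:93198767-93199016, plus strand) of the Htr3a-high cells, and for a fatty acid receptor (Ffar3, chr7:30856179-30856428, minus strand) and a peptide precursor (Cck, chr9:121495695-121495944, minus strand) that marked subsets of the Htr3a-low cells. Capitals mark TGACG, the half-site of the cyclic AMP response element, or its reverse complement CGTCA. The motif was searched on both strands, with overlapping matches printed as 1 block. The table was searched for 6 genes and held 4 of them; Htr3a and Penk were the other two.
Htr3b: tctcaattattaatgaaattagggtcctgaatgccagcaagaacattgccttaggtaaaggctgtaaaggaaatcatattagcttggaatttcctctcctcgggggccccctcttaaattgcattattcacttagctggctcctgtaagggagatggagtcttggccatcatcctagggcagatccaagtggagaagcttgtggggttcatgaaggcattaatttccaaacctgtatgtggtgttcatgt
Adcyap1: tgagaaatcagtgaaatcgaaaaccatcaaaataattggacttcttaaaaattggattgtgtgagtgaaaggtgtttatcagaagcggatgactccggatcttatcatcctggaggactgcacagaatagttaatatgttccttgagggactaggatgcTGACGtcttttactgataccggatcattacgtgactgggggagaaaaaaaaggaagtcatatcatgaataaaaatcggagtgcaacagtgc
Ffar3: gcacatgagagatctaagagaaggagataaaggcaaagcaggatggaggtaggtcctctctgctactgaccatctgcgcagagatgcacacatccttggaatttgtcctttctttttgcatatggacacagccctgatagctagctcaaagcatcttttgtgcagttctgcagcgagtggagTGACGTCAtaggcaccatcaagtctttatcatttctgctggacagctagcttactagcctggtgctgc
Cck: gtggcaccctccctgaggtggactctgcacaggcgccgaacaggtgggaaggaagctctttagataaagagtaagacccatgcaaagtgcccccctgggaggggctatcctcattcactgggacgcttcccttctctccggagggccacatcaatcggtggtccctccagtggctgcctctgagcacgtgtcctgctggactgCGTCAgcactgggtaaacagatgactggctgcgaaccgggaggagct
Htr3b held no match in this window, Adcyap1 and Cck held 1 each, and Ffar3 held 2 that overlap as the palindrome TGACGTCA. Of 32851 promoter windows of the same length, 5836 (17.8%) held at least 1. A match is a description of letters and not evidence of a working site.

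Htr3a and Slc17a6 chose the cells and are given as a description. Htr3a reached 3.46 in the lowest Htr3a-high cell, with a median of 7.35 and a highest value of 10.70. The highest Htr3a-low cell had 1.00, 17 of the 44 had no Htr3a reads, and the 8 intermediate cells spanned 1.00 to 2.64. Slc17a6 was at 2.10 in the lowest cell kept and at 1.82 in the highest neuron left out. Its level did not separate the classes: the median was 4.09 in Htr3a-high and 3.83 in Htr3a-low cells, and the difference of means was 0.04, 0.03 and -0.04 on plates 1, 2 and 3. All 5 neuronal genes of the rule reached 2 in 72 of the 78 cells compared. Htr3a-high cells made up 39.5% of Slc17a6 neurons on plate 1 (17 of 43, exact Clopper-Pearson 95% interval 25.0 to 55.6%), 38.9% on plate 2 (7 of 18, 17.3 to 64.3%) and 40.0% on plate 3 (10 of 25, 21.1 to 61.3%). These intervals, and all intervals and limits that follow, cover counting error only.

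Depth was 453108 to 14310837 recovered reads per cell over the whole series, with a median of 4065076. Median depth in Htr3a-high and Htr3a-low cells was 3377656 and 3944010 reads on plate 1, 4513472 and 3075248 on plate 2, and 6095890 and 5709358 on plate 3. Plates 2 and 3 shared 1 naming of libraries and plate 1 had its own. RNA of smooth muscle, the tissue around the plexus, was present in both classes: at least 4 of the 8 listed genes were detected in 15 of 34 Htr3a-high and 27 of 44 Htr3a-low cells, with summed levels of 1.35 to 9.90 and 1.13 to 11.14 and medians of 4.36 and 4.25. At least 50% of the 7 glial genes was detected in 1 and 2 cells (summed levels 0.03 to 9.55 and 0 to 7.86) and the 6 fibroblast genes in 6 and 6 (0 to 8.55 and 0 to 10.18). No member of these 3 lists was at 0 in a whole class, and none differed by 1 or more on every plate. With cells that carried RNA of smooth muscle, glia, fibroblasts or endothelium (at least 50% of a list at 2 or more) left out, 23 Htr3a-high and 28 Htr3a-low cells remained and 77 genes were called higher and 9 lower instead of the 58 and 16 given next, sharing 32 and 6. The calls of Penk, Adcyap1, Tac1 and Ffar3, described in the following paragraphs, then ended at mean differences of 2.20, 1.76, -2.52 and -2.004. Cell 40 of plate 1, an Htr3a-high cell, stood apart: 5 of 6 genes listed for extrinsic sensory neurons were detected in it, with Avil at 8.43, Isl2 at 7.30 and Prdm12 at 6.99, while Chat was at 0. Results are given with this cell, and the counts without it stand beside the main counts.

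For each gene the difference of mean log2(RPKM + 1), Htr3a-high minus Htr3a-low, was taken on each plate, and a gene was called different where it was at least 1 in the same direction on all 3 plates. Of 15179 genes with a mean of at least 0.5, 58 were called higher (0.382%) and 16 lower (0.105%) in Htr3a-high cells, 0.488% in either direction. Differences of any size shared a direction on 3 plates for 13.1% of genes upward and 11% downward, and the median difference of all tested genes was 0.05 (-0.10, 0.28 and -0.00 on plates 1, 2 and 3). Without cell 40 of plate 1 the counts were 66 and 18, and 57 and 16 of the called genes were among them. The counts depended on the scale: with the log2 ratio of mean RPKM, which weights the highest cells, 0.238% of tested genes were higher and 0.612% lower, sharing 6 and 11 genes with the main call. They also changed with every cell at a Tac1 of 1 or more left out (an alternative chosen after seeing the data). Then 16 genes were higher and 12 lower, sharing 7 and 2. Plate 2 was left with 6 Htr3a-high and 4 Htr3a-low cells, so calls lost on that plate rest on few cells. Without the 25% of cells with the fewest genes, 24 and 10 genes were called, sharing 17 and 5.

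**Figure D1:**
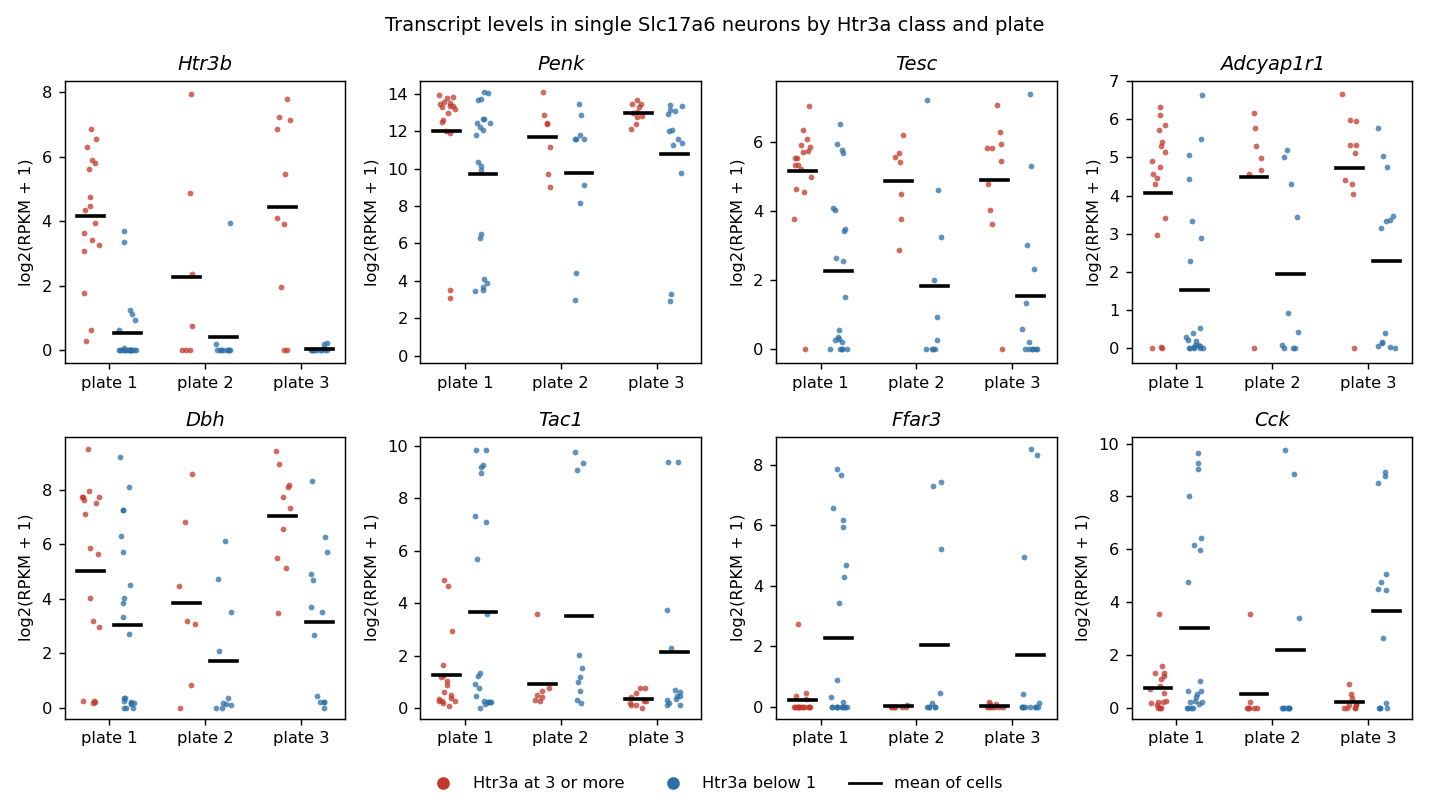
Levels of 8 transcripts in single Slc17a6 neurons (y axis, log2(RPKM + 1)) by plate (x axis); each point is a cell, red Htr3a-high and blue Htr3a-low, and bars are means of cells. Htr3b lies near 0 in nearly all Htr3a-low cells, and Tac1 and Ffar3 are high in a subset of Htr3a-low cells. No Htr3a-high cell reaches a Tac1 of 5, a limit chosen after seeing the data.

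The second subunit of the receptor accompanied the first. Htr3b was detected, at a log2(RPKM + 1) of 1 or more, in 26 of 34 Htr3a-high cells (lowest 0.00, median 4.02, highest 7.95) and in 5 of 44 Htr3a-low cells (0.00, 0.00 and 3.93). On plate 1 it was detected in 15 of 17 against 4 of 21 cells. The counts were 3 of 7 against 1 of 10 on plate 2, and 8 of 10 against 0 of 13 on plate 3. An approximate upper limit for this count of 0, 3 divided by the number of cells, was 23.1%. The classes overlapped, since 8 Htr3a-high cells lacked Htr3b at this level. The differences were 3.62, 1.86 and 4.41 on plates 1, 2 and 3. The value on plate 2 rested on few cells, and without cell 25 it was 0.92. With Tac1 cells left out the differences remained 3.80, 1.55 and 4.41. Htr3a (chr9:48899213-48911099) and Htr3b (chr9:48935008-48964990) lie on the minus strand in GENCODE M21 (GRCm38), 23908 bases apart, so they are neighbours as well as partner subunits.

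Of the other serotonin receptor genes, 3 passed the filter on low values and none was called, near the share over all genes (0.488% called). Htr4, a Gs-coupled receptor that enhances transmitter release in the plexus, was detected in 23 of 34 Htr3a-high cells (lowest 0.00, median 2.30, highest 5.59) and in 15 of 44 Htr3a-low cells (0.00, 0.00 and 5.78). Its differences of 0.85, 1.24 and 1.51 shared a direction but missed 1 on plate 1. Htr2b and Htr7, both G protein-coupled, had no common direction over plates: -0.70, 0.59 and -1.34 for Htr2b, and 0.68, -0.26 and 0.57 for Htr7. The other 9 genes of the 13 listed did not pass the filter.

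Of 17 tested neuropeptide precursors, Penk and Adcyap1 were called higher and Tac1 and Cck lower. Over all tested genes 0.488% were called in either direction. Penk, the enkephalin precursor, was at 3.06 in the lowest, 12.97 in the median and 14.12 in the highest Htr3a-high cell, against 2.92, 11.59 and 14.11 in Htr3a-low cells. Both classes reached the same top level, and 2 of 34 Htr3a-high against 11 of 44 Htr3a-low cells were below 7. The differences were 2.29, 1.92 and 2.22. The 55 cells that were not neurons had a median Penk of 3.63 and 52 of them were below 7, so values in this range were also found in cells of other types. With the log2 ratio of mean RPKM the Penk difference was 0.83, and no call was made. The direction was not shared with Tac1 cells left out, at 2.37, -0.48 and 2.51. Penk overlaps A830012C17Rik on the other strand, which was also higher (1.40, 2.08 and 2.16), and strand use in counting is not stated by the sources.

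Adcyap1 encodes PACAP, a peptide that raises cyclic AMP through the receptor PAC1, which is the product of Adcyap1r1. Adcyap1 was detected in each of the 34 Htr3a-high cells (lowest 1.92, median 7.30, highest 9.89) and in 35 of 44 Htr3a-low cells (0.00, 5.27 and 10.52). The receptor Adcyap1r1 was detected in 29 of 34 (0.00, 4.94 and 6.67) and in 18 of 44 cells (0.00, 0.39 and 6.64). Each cell with the receptor transcript detected also had the peptide transcript, in 29 Htr3a-high and 18 Htr3a-low cells. In Htr3a-high cells this had to be so, since all 34 had Adcyap1. The differences were 1.55, 2.66 and 2.60 for Adcyap1 and 2.55, 2.56 and 2.44 for Adcyap1r1, the latter with the smallest spread over plates of the receptors named here. With Tac1 cells left out both calls ended. Adcyap1 then changed sign on plates 1 and 2 (-0.13, -0.21 and 2.51), while Adcyap1r1 kept its direction (1.82, 0.94 and 1.87). Cartpt, the precursor of the CART peptide, was abundant in both classes (medians 9.33 and 8.20) and its differences of 0.79, 2.26 and 1.04 missed the call.

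Dbh, which converts dopamine to noradrenaline, was detected in 28 of 34 Htr3a-high cells (lowest 0.00, median 6.22, highest 9.48) and in 23 of 44 Htr3a-low cells (0.00, 2.38 and 9.20). It was present in 10 of 10 Htr3a-high cells of plate 3, where the lowest was 3.48. The differences were 1.98, 2.12 and 3.90. The call ended with Tac1 cells left out (1.36, 0.86 and 2.84) and without the 25% of cells with the fewest genes. Of 7 tested genes for monoamine handling Dbh alone was called, and 4 others shared its direction on all plates, against 0.382% and 13.1% of all tested genes. Among these were Th, the first enzyme of catecholamine synthesis (2.10, 1.99 and 0.45), and Ddc, which makes dopamine and serotonin from their amino acid precursors (1.17, 0.85 and 1.12); both were named after their values were seen. Slc29a4, the plasma membrane monoamine transporter, which takes up serotonin and dopamine with low affinity, was detected in 33 of 34 and 29 of 44 cells (medians 5.13 and 4.00). Its differences were 1.83, 2.40 and 1.60, and with Tac1 cells left out the call ended at 0.67, 1.53 and 0.67.

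Both classes were cholinergic. Chat, the acetylcholine-synthesising enzyme, was detected in 32 of 34 Htr3a-high cells (0.00, 5.20 and 7.07) and 43 of 44 Htr3a-low cells (0.00, 5.56 and 7.70), and its differences of -0.996, 0.57 and -0.22 had no common direction. Nos1, the neuronal nitric oxide synthase, was detected with Chat in 26 of 34 Htr3a-high and 14 of 44 Htr3a-low cells. Its level was low where it was found: the highest values were 4.11 and 4.57, while neurons without Slc17a6 but with Htr3a had a median of 5.36. The Nos1 differences of 1.22, 0.92 and 1.06 missed the call on plate 2. Colq, the collagen tail that anchors acetylcholinesterase, was detected in 26 of 34 against 18 of 44 cells (medians 2.76 and 0.08), with differences of 1.31, 1.48 and 1.56; without cell 25 of plate 2 the smallest was 0.94. Lynx1, a modulator of nicotinic receptors that is tethered to the membrane, was also called, with differences of 1.35, 1.15 and 1.18. The calls of Colq and Lynx1 ended with Tac1 cells left out, at mean differences of 1.40 and 0.73, and leaving out any 1 of 6 cells ended that of Lynx1. None of the 5 tested nicotinic receptor subunits or 3 muscarinic receptors was called, which is near the share over all genes (0.488% called).

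Tesc, Kcnip4 and S100a13 differed by more than 2 on every plate. Tesc encodes tescalcin, an EF-hand protein that binds the sodium-proton exchanger NHE1. It was detected in 32 of 34 Htr3a-high cells (lowest 0.00, median 5.51, highest 7.09) and in 20 of 44 Htr3a-low cells (0.00, 0.58 and 7.41), with differences of 2.90, 3.03 and 3.34. At 3 or more it was found in 31 Htr3a-high and 14 Htr3a-low cells, so a minority of Htr3a-low cells matched the Htr3a-high level. Kcnip4, an auxiliary subunit of A-type Kv4 channels, was detected in 34 of 34 and 28 of 44 cells (medians 5.33 and 3.13) and differed by 2.42, 2.17 and 2.51. Gm42769 and Gm43048, which lie inside the Kcnip4 gene on its strand, were called too, so reads of these annotations cannot be told apart from the transcript of Kcnip4 without the counting rules. S100a13, a calcium-binding protein, differed by 2.50, 2.18 and 2.62 (medians 5.97 and 3.70), although cells that were not neurons had it at a median of 4.69. Kcnj3, the GIRK1 subunit of G protein-gated potassium channels, differed by 1.04, 1.36 and 1.87. It was the 1 potassium channel gene called of 25 tested, and no gene was called of 9 sodium channel genes or 14 calcium and HCN channel genes; with 0.488% of all tested genes called, counts of 0 in lists of this size are near the share over all genes. Sstr5, a Gi-coupled somatostatin receptor, differed by 1.02, 1.03 and 1.93. The calls of Kcnj3 and Sstr5 lay close to the limit, and leaving out any 1 of 16 cells ended the first and any 1 of 29 the second. Tesc stayed called with Tac1 cells left out, whereas the calls of Kcnip4 (mean difference 1.09), S100a13 (1.62), Kcnj3 (1.49) and Sstr5 (0.64) ended, each with its direction kept on all plates.

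Further genes called higher had varied roles. Fbxo2, a neuronal F-box protein that recognises glycoproteins for degradation, differed by 2.72, 1.92 and 2.24 (medians 5.79 and 3.86). Serping1, the C1 esterase inhibitor, differed by 1.89, 2.85 and 1.68 (medians 4.81 and 2.61) and was the 1 gene of the 38 called genes followed through the alternatives that stayed called in each of them. Slco3a1, an organic anion transporter, differed by 1.64, 3.10 and 1.58, the metallothionein Mt3 by 1.57, 1.73 and 2.35, and Fam89a, of less known function, by 2.05, 1.85 and 2.88. Klhl1, an actin-binding Kelch protein, was detected in 32 of 34 against 23 of 44 cells (differences 2.25, 2.90 and 1.31), and Nxph2, a neurexin ligand, in 24 of 34 against 14 of 44 cells (2.02, 1.35 and 1.08). These 2 were called higher of a list of 10 tested intrinsic sensory neuron genes, while Cck of the same list was called lower. Over all tested genes 0.382% were called higher and 0.105% lower. Calcb, also on that list, was not called, with differences of -0.29, -1.25 and -1.17. Lrrc4c, an adhesion molecule of excitatory synapses, differed by 1.41, 1.57 and 1.03. It and Nxph2 were the 2 genes called of 18 tested for axon guidance and adhesion, against 0.488% of all tested genes. Fbxo2 and Serping1 stayed called with Tac1 cells left out. Slco3a1, Mt3, Klhl1 and Lrrc4c then lost the call at mean differences of 1.30, 1.05, 1.08 and 0.68, with their direction kept on all plates. Fam89a and Nxph2 lost the direction too, with means of 0.51 and 0.72 and plate 2 at -0.57 and -0.51.

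**Figure D2:**
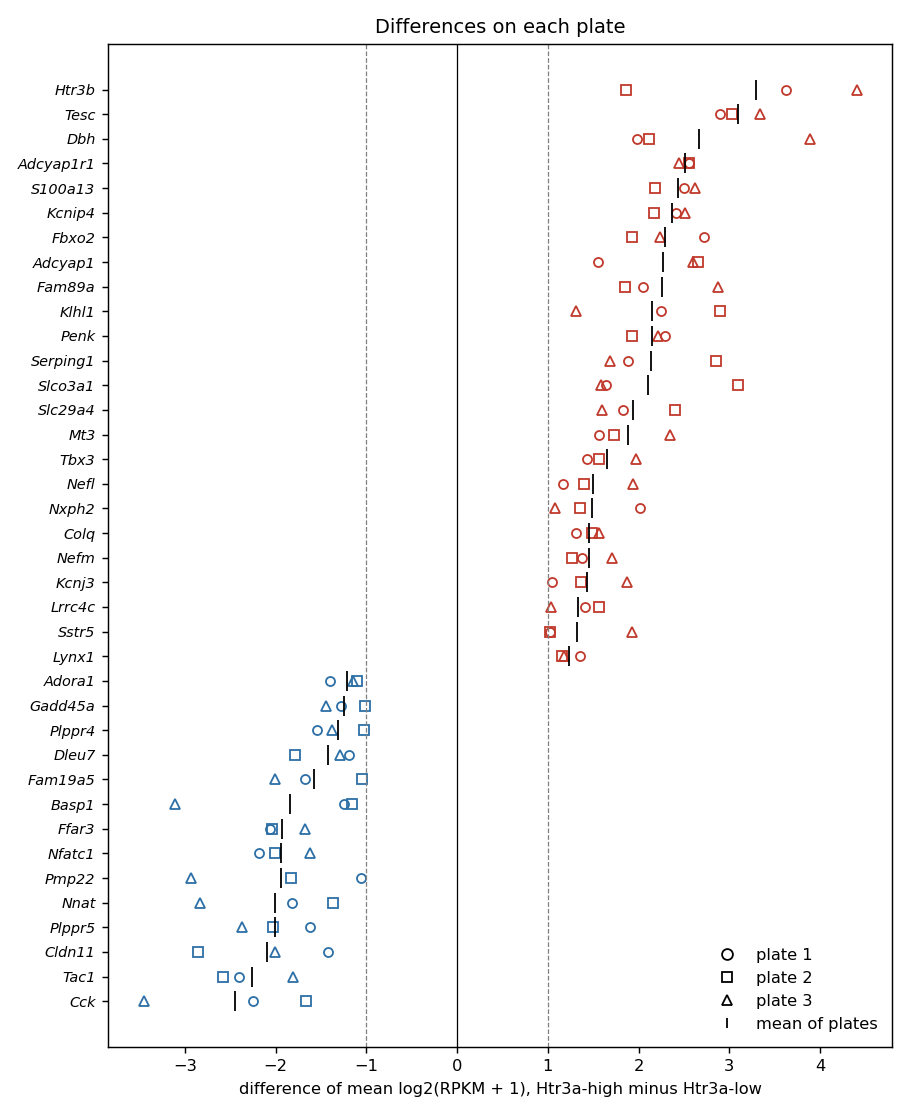
Differences of mean log2(RPKM + 1), Htr3a-high minus Htr3a-low (x axis), for the 38 called genes named here (rows); symbols are plates, black ticks are means of plates, and dashed lines mark 1 and -1. Tesc and Adcyap1r1 have nearly the same difference on each plate, whereas Htr3b spans 1.86 to 4.41.

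Transcripts that were lower in Htr3a-high cells marked a subset of the Htr3a-low cells. Tac1, the precursor of substance P and a marker of excitatory motor neurons, was at most 4.88 in Htr3a-high cells (lowest 0.00, median 0.46) and at most 9.86 in Htr3a-low cells (0.00 and 0.96). Its differences were -2.41, -2.58 and -1.81. Of 4 tested genes listed for excitatory motor neurons, Tac1 was called lower and Penk higher, against 0.488% of all tested genes called. A level of 5 or more was found in 13 Htr3a-low cells, 8, 3 and 2 on plates 1, 2 and 3. The limit of 5 was chosen after seeing the data and lies just above the highest Htr3a-high cell. The count of 0 of 34 Htr3a-high cells therefore follows from that choice. Ffar3, a receptor for short-chain fatty acids, was detected in 14 Htr3a-low cells (highest 8.50) and in 1 Htr3a-high cell (highest 2.73), and differed by -2.06, -2.04 and -1.68. Nfatc1, a calcineurin-dependent transcription factor, was detected in 22 Htr3a-low and 6 Htr3a-high cells (highest 8.44 and 2.16) and differed by -2.19, -2.004 and -1.63; it and the next 4 genes were named after their values were seen. Each of the 13 Htr3a-low cells with Tac1 at 5 or more had both Ffar3 and Nfatc1 detected. Adcyap1r1 was detected in 0 of these 13 (an approximate upper limit of 23.1%, taken as for Htr3b). It was detected in 1 of the 3 cells with intermediate Htr3a that had Tac1 at 5 or more. Plppr5, Cldn11, Dleu7 and Adora1 were also called lower, with mean differences of -2.01, -2.09, -1.42 and -1.22, and Adora1 encodes the adenosine A1 receptor.

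The split of Htr3a-low cells by Tac1 separated the called genes into several patterns. Of the 44 cells, 21 had Tac1 at 1 or more and 23 did not. Htr3b, Colq and Serping1 were low in both: their means with and without Tac1 were 0.32 and 0.39, 1.35 and 1.52, and 1.91 and 2.21, against 3.85, 2.89 and 4.08 in Htr3a-high cells. Tesc, Adcyap1r1 and Dbh had means of 0.91, 0.73 and 1.42 in Htr3a-low cells with Tac1. Their means were 2.90, 2.85 and 4.01 in those without, and 5.02, 4.35 and 5.37 in Htr3a-high cells. The means of these groups pool the cells of all plates. Htr3a-low cells with Tac1 numbered 11, 6 and 4 on plates 1, 2 and 3, and those without 10, 4 and 9. Tac1 and plate were therefore not fully separated in these means. An intermediate mean was not an intermediate level in each cell: Tesc in Htr3a-low cells without Tac1 ran from 0 to 7.41. The neurofilament genes Nefl and Nefm and the transcription factor gene Tbx3 were lower in Htr3a-low cells with Tac1 than in the other groups. Nefm was at 5.02 with Tac1, 8.57 without, and 8.32 in Htr3a-high cells. Nefl was at 5.37, 8.94 and 8.68 in the same order, and Tbx3 at 3.50, 6.70 and 6.79. Nefl and Nefm overlap each other on opposite strands. They were the 2 called of 11 tested genes for calcium-binding proteins and neurofilaments (median difference -0.20), against 0.488% of all tested genes. Nefl, Nefm and Tbx3 were called higher in the whole comparison, by 1.499, 1.45 and 1.65, but with Tac1 cells left out the means of plates were -0.14, -0.24 and 0.36.

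**Figure D3:**
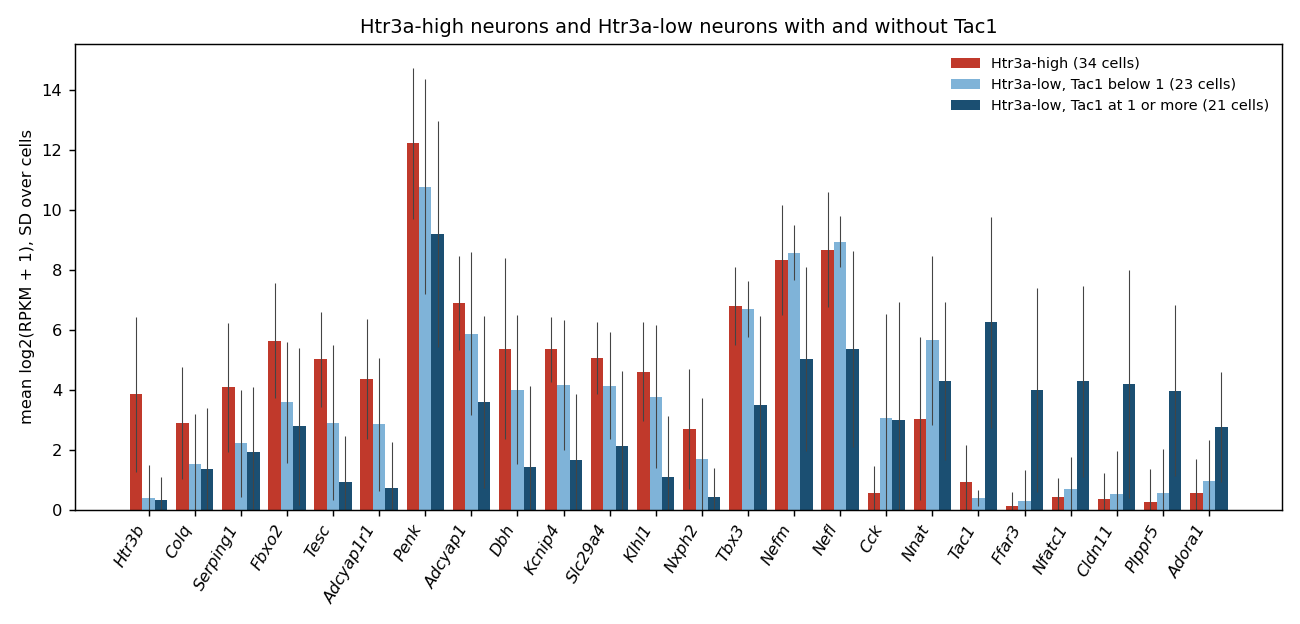
Mean log2(RPKM + 1) (y axis) of 24 called transcripts (x axis), with the cells of all plates pooled. The groups are Htr3a-high cells, Htr3a-low cells with Tac1 below 1 and Htr3a-low cells with Tac1 at 1 or more. Error bars are 1 SD over cells. Nefm, Nefl and Tbx3 are alike in the first and second groups, Ffar3 and Nfatc1 are high in the third, and Htr3b is low in both Htr3a-low groups.

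With Tac1 cells left out of both classes, 26 Htr3a-high and 23 Htr3a-low cells remained. On plate 2 these were 6 and 4, and 1 of the 4 had 522732 reads. Whether a lost call reflects Tac1 neurons or the few cells of plate 2 was not tested. Of the 58 genes called higher, 40 kept that direction on all 3 plates and 7 kept the call; their median difference was 1.07 against 1.65 before. Of the 16 genes called lower, 8 kept the direction and 2 the call, with medians of -0.54 and -1.88. Tac1 is 1 of these 16, and its call had to end once its cells were left out. Ffar3 and Nfatc1 were detected in all 13 Htr3a-low cells with Tac1 at 5 or more, which were left out too. Tesc (1.93, 1.35 and 3.24), Fbxo2 (1.18, 1.67 and 2.27), Serping1 (2.10, 2.32 and 1.42) and Htr3b kept the call upward. Nnat, an imprinted proteolipid gene of neurons, was among those that kept it downward. Nnat differed by -1.82, -1.37 and -2.84 in all cells and by -1.97, -1.99 and -3.81 in cells without Tac1. Its call ended with cells carrying RNA of other types left out, at a mean difference of -0.95, with the log2 ratio of mean RPKM, and without cell 19 of plate 2.

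Some Htr3a-low cells carried Cck, the cholecystokinin precursor. Cck reached at most 3.57 in Htr3a-high cells (lowest 0.00, median 0.19) and 9.78 in Htr3a-low cells (0.00 and 0.59), with differences of -2.25, -1.66 and -3.45. At 3 or more it was found in 2 Htr3a-high and 18 Htr3a-low cells. Of these 18, 4 also had Tac1 at 5 or more, near the share in all Htr3a-low cells (13 of 44). Cells with little Penk fell largely among those with Cck: of the 11 Htr3a-low cells with Penk below 7, 9 had Cck at 3 or more. This combination was in 0 of 34 Htr3a-high cells, 2 of which had Penk below 7. Calcb, the precursor of a calcitonin gene-related peptide, was at 3 or more in 12 Htr3a-low cells, 11 of which had Cck at 3 or more, and in 4 Htr3a-high cells. The limits of 3, 5 and 7 were chosen after seeing the data, and counts of 0 depend on them. With cells at a Chat below 2 left out the Cck call ended, at a mean difference of -2.12. With Tac1 cells left out it ended at -1.50, -0.22 and -4.53. It also rested on few cells, since without either cell 24 or cell 33 of plate 2 it ended, with 0.82 as the smallest size on that plate.

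Among further genes called lower, Basp1 and Gadd45a kept their direction on every plate with Tac1 cells left out but lost the call (smallest sizes -0.72 on plate 1 and -0.92 on plate 2), whereas Pmp22, Fam19a5 and Plppr4 lost the direction too. Basp1, a growth-associated protein of axon endings, had medians of 1.48 in Htr3a-high and 4.25 in Htr3a-low cells and differed by -1.25, -1.16 and -3.11. On plate 3 each of 13 Htr3a-low cells had Basp1 at 3.66 or more. Pmp22, Fam19a5 and Plppr4 differed by -1.94, -1.58 and -1.32 as means of plates, and Gadd45a, a stress-response gene, by -1.25. Gadd45a was called in 7 of 18 alternatives. Among these 7 were the settings that left out a plate and those that changed only the filter, which could not end its call. Leaving out any 1 of 9 cells ended the call of Gadd45a, and for Basp1 any 1 of 7 did. Sst, the somatostatin precursor, reached 10.87 in Htr3a-low and 3.21 in Htr3a-high cells, but its differences of -0.84, -0.47 and -1.84 missed the call.

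The 8 cells with intermediate Htr3a had values of both classes. Htr3b was detected in 3 of them, Adcyap1r1 in 4, Tesc in 6 and Dbh in 6. Tac1 was at 5 or more in 3 of the 8. Of these 3, Adcyap1r1 was detected in 1, Ffar3 in 2 and Nfatc1 in 2. Their median Penk was 12.89 and none of the 8 was below 7.

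Neurons without Slc17a6 served as a comparison, since Htr3a was common in them as well. On plates 2 and 3 there were 14 and 15 such neurons with Htr3a and 7 and 11 without; plate 1 had 1 and 9 and was not compared. Of the 58 genes higher in Htr3a-high Slc17a6 neurons, 30 (51.7%) were higher on both plates here and 4 were lower on both. Over all 15179 genes the share higher on both plates was 24.1%. Of the 16 lower genes, 13 (81.2%) were lower on both plates and 1 was higher, against 24.4% of all genes. Tac1 differed by -4.68 and -4.17, Ffar3 by -3.61 and -1.42 and S100a13 by 3.79 and 1.99. Htr3b differed by 0.21 and 2.68 and was detected in 11 of 30 Htr3a-high neurons without Slc17a6. Penk went the other way, with differences of -4.76 and -1.52, as did Serping1 (-1.75 and -0.55). Chat, which had no common direction in Slc17a6 neurons, differed by -4.35 and -2.54 here. Nos1, which was higher on each plate in Slc17a6 neurons but missed the call, differed by 3.01 and 2.56. Cck, Adcyap1 and Fam89a had no common direction. The difference between neurons with and without Slc17a6 was not tested.

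**Figure D4:**
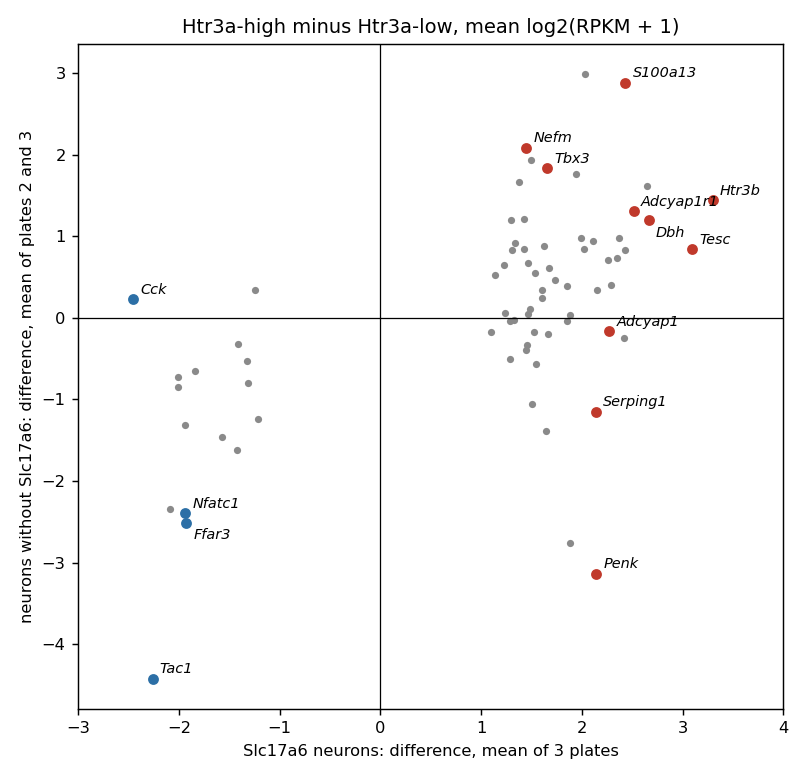
Differences of mean log2(RPKM + 1), Htr3a-high minus Htr3a-low, of the 74 called genes in Slc17a6 neurons (x axis, mean of 3 plates) and in neurons without Slc17a6 (y axis, mean of plates 2 and 3); each point is a gene, with named genes in red (higher) and blue (lower). Tac1, Ffar3 and Nfatc1 lie low on both axes, S100a13 high on both, and Penk is higher in the first and lower in the second.

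No gene was called of 7 tested for glutamate transmission, 8 glutamate receptors, 4 GABA-A and glycine receptors, 4 P2X and P2Y receptors, 12 mechanosensitive, TRP and acid-sensing channels, 8 neurotrophic factor receptors, 13 injury and immediate early genes or 16 genes of vesicle release. With 0.488% of all tested genes called, counts of 0 in lists of this size are near the share over all genes. Their median differences lay between 0.11 and 0.31, against 0.05 for all tested genes. Members with a common direction that missed the call included the AMPA receptor subunit gene Gria1 (0.74, 1.93 and 2.76), the GDNF receptor gene Ret (0.81, 1.93 and 1.68) and the neurotrophin receptor gene Ngfr (1.90, 2.50 and 0.92). Etv1, on the lists of inhibitory motor genes and enteric transcription factors, missed the call as well (1.00, 0.97 and 1.52). P2ry1 and Grm7, receptors for ADP and glutamate, differed by -1.46, -0.57 and -1.17 and by -1.65, -1.52 and -0.28. With Tac1 cells left out, the mean differences of P2ry1 and Grm7 had the other sign, at 0.42 and 0.056.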

How the data were processed

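Expression was taken from the authors' deposited table of log2(RPKM + 1), with 49492 genes and 204 cells. The values themselves show the base of 2 and the added 1. The build is mm10, per the submitters' processing notes. Aligner, counter and use of strand: not given in the sources used here. Each library was made from poly(A) RNA with a well barcode and a plate barcode and no molecular identifiers, and the wells were combined by plate ahead of PCR, per the labels' protocols. Relative depth was recovered with GENCODE M21 exon lengths, for which 82.9% of 1988702 values gave whole reads within 0.001 of a read.

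Class means of log2(RPKM + 1) were compared plate by plate where each class had 3 or more cells, and plates were weighted equally. Tested genes had a mean of at least 0.5; Htr3a, Slc17a6 and the 5 neuronal genes were left out. Detection means a log2(RPKM + 1) of at least 1. The scripts ran in Python 3.11.15 with pandas 2.3.3, numpy 2.4.6 and scipy 1.17.1 and were tested on simulated data. Named genes were the 12 with the largest smallest-plate difference in each direction (detected in 50% of cells of the higher class, unnamed loci left out), the called members or else 2 leading members of each of 36 gene lists, and all serotonin receptors and main transmitter genes. Of these, 462 of 464 listed genes are in the table. Lists and members were chosen with earlier results of these data known. Alternatives covered the scale, pseudocount, TPM, filters, thresholds, other cell types, depth, plates and single cells.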

Additional observations from a re-analysis of the deposited data

Results flagged for a closer look

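Among groups of 4 to 10 cells of 1 class and plate, over 59 genes, 27 values stood far from the rest of their group, a number equal to 15.3% of the groups examined; chance flags about 1 in 20 groups, and groups of mostly 0 are flagged readily. Values are log2(RPKM + 1). Cell 15 of plate 3, an Htr3a-high cell with the low depth of 853889 reads, stood apart for 8 genes: Tesc at 0, Adcyap1r1 at 0, Fbxo2 at 0.93, Etv1 at 1.67 and Ngfr at 0.42 were low, and Pdpn at 1.19, Plppr5 at 0.32 and Dleu7 at 0.91 were high. Without this cell 65 genes were called higher and 15 lower. Cell 35 of plate 3, also Htr3a-high, had Slc29a4 at 0, Ret at 3.33 and P2ry1 at 2.10. Cell 35 of plate 2, Htr3a-high, had Adcyap1r1 at 0, Calcb at 1.45, Plppr5 at 0.30 and Adora1 at 1.69. Other Htr3a-high cells of plate 2 stood apart with Tac1 at 3.58 (cell 39), Cck at 3.57 and Cldn11 at 0.56 (cell 42), and Ffar3 at 0.058 and Dleu7 at 0.080 (cell 49). Other Htr3a-high cells of plate 3 did so with Hdac10 at 4.07 (cell 66), Calcb at 0.29 (cell 9), Cldn11 at 0.18 (cell 58) and Adora1 at 2.51 (cell 25). Of Htr3a-low cells, 3 on plate 2 stood apart, with Htr3b at 3.93 (cell 59), Colq at 3.87 (cell 19) and Nos1 at 4.19 (cell 33).

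For 3 of the 38 called genes followed through the alternatives (5 of all 74 called genes) the difference between Htr3a classes had one sign on all plates in Slc17a6 neurons and the other sign on both plates in neurons without Slc17a6. In the latter the mean difference was -3.14 for Penk, -1.15 for Serping1 and 0.34 for Gadd45a. The difference between the populations was not tested.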

How the results depend on the processing

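Against 0.382% of tested genes higher and 0.105% lower, the shares were 1.21% and 0.547% with a pseudocount of 0.1, 0.597% and 0.213% after rescaling to TPM, 1.01% and 0.342% against cells with no Htr3a reads (on 2 plates), and 0.157% and 0.0653% without the 25% of cells with the fewest genes. The share lower was 0.612% with the log2 ratio of mean RPKM, 0.0841% (7 genes) with a mean of at least 2, and 0.0598% (9 genes) without cells with RNA of other types. With Tac1 cells left out, an alternative added after seeing the data, 0.104% (16 genes) were higher. Leaving out 1 plate gave 0.545 to 1.85% higher (81 to 283 genes) and 0.286 to 0.45% lower (44 to 69 genes), since agreement on fewer plates was asked. Leaving out 1 cell gave 0.296 to 0.435% higher (45 to 66 genes) and 0.0723 to 0.145% lower (11 to 22 genes). Leaving out cells with Nos1, also added later, left 1 plate with enough cells and is not reported. Over 59 genes and 1180 values, 948 moved by less than the spread over plates, 224 moved further and 8 changed sign. The 948 include the values without a filter and with a mean of at least 2. These settings change only which genes are tested, so the differences could not move under them. Those 8 were Htr2b (0.045), Htr7 (-0.40) and Chat (0.16) against cells with no Htr3a reads, Chat without plate 1 (0.17; leaving out plates gave -0.61 to 0.17), and Nefl (-0.14), Nefm (-0.24), P2ry1 (0.42) and Grm7 (0.056) with Tac1 cells left out. Of 38 called genes, 33 lost the call with Tac1 cells left out, among them Tac1 itself, whose call that choice had to end. The call was lost for 24 with the log2 ratio of mean RPKM. It was lost for 20 without cells with RNA of other types and for 20 without the cells with the fewest genes. For 18, 1 cell could end the call, and none of the 38 changed sign without a cell. The cause was not tested. No paired analysis was possible because the numbers in the labels only number cells within a plate.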
